A study of Mus musculus with 12 samples.

Results

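The genes described here are 33 genes of general endothelial cell identity, measured in mouse medulloblastoma (MB) and in the granule neuron progenitors (GNPs) from which this tumor arises. They were taken from a list of names, chosen with earlier results of these data known, and for each gene the brightest probe, by the mean of the 12 arrays, was used. The arrays hold probes for 32 of the 33 among 19057 genes in all, and Ly6a was the gene without one in the annotation used. Total RNA of 3 groups with 4 samples each, namely NdpKO;Ptch+/- MB, Ptch+/- MB and wild-type (WT) GNP, was hybridized to Illumina MouseWG-6 v2.0 BeadChips, with 1 array per sample.

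In NdpKO;Ptch+/- mice, Ndp, the X-linked gene of the secreted ligand Norrin, is replaced in the germ line by a cassette that holds lacZ, and 1 allele of the Hedgehog receptor gene Ptch1 is lost. The methods describe all such compound mutants as male (Ndp-/y). Ptch+/- MBs carry the same Ptch1 lesion with Ndp intact. Their sex is not given by sample, and the methods say of the control genotypes in general that males and females were included. The labels give no age for the tumors and a mixed strain background for the NdpKO;Ptch+/- MBs, while Ptch+/- MBs and GNPs are labelled C57Bl/6. An effect of strain or sex therefore cannot be told apart from that of the Ndp genotype, although the methods state that mice of one breeding cohort were compared. Nor can an effect of age, since the paper reports a shorter mean tumor latency in NdpKO;Ptch+/- mice than in Ptch+/- littermates. GNPs came from cerebella of WT mice at postnatal day 6 and had been purified on a percoll gradient and by pre-plating, whereas tumors were profiled as tissue. Comparisons of tumors with GNPs therefore differ in age and preparation too, and these effects cannot be told apart. The GNP arrays are described as coming from separate animals. The titles of the tumor samples carry a different number each but do not say that these are separate animals, so for tumors a p-value reflects only how far these samples spread, which may be technical.

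Endothelial cells line the blood vessels. They are held together by junction proteins such as VE-cadherin (Cdh5), sense growth factors and flow through surface receptors, and in the brain form the blood-brain barrier. Norrin acts on them through the receptor Fzd4 and beta-catenin, and mice or people without it have defects of the retinal vessels, and mice also of the barrier in the cerebellum. ETS family transcription factors, among them Erg, Fli1 and Ets1, are known to drive many genes of endothelial identity.

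The deposited values are normalized log2 signals with a floor near 4.1, and values under a limit of 4.5 were treated as background. All arrays had a median of 4.15, and 31.8% to 32.5% of the probes of an array reached the limit. The single Ndp probe lay at background in every sample, at 4.12 to 4.16 in NdpKO;Ptch+/- MBs, 4.14 to 4.21 in Ptch+/- MBs and 4.14 to 4.21 in GNPs, so it did not check the genotype. Of 8 defining markers of endothelium, Pecam1, Cdh5, Cldn5, Tek and Esam reached the limit on at least 1 array, while Tie1, Kdr and Erg lay at background on all 12. The mean level of these 8 genes was 5.85 to 6.58 in NdpKO;Ptch+/- MBs, 5.55 to 6.13 in Ptch+/- MBs and 6.44 to 6.99 in GNPs. The purified GNPs had the highest group mean (6.75, against 6.13 and 5.72 in the tumors), with ranges that overlapped those of NdpKO;Ptch+/- MBs. In RNA from whole tissue or cell pools, fewer endothelial cells and less RNA of a gene per cell cannot be told apart.

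Among the 32 measured genes, 26 reached 4.5 on at least 1 array. Erg and Fli1, ETS factors of endothelium, Apln and Dll4, ligands of tip cells, Clec14a, a surface lectin, and Prss23, a secreted protease, stayed under the limit on all 12 arrays, and nothing can be said of their change. By group mean, 23 of 32 genes (71.9%) were above the limit in NdpKO;Ptch+/- MBs, against 18 (56.2%) in Ptch+/- MBs and 23 (71.9%) in GNPs. Over all genes these shares were 45.2%, 45.7% and 45.1%. The genes above the limit in NdpKO;Ptch+/- MBs and not in Ptch+/- MBs were Pecam1, Cdh5, Eng, Icam2, Cd34 and Mcam, and the reverse held for Nos3 alone. Some of these lay close to the limit: the means of Cd34 and Aplnr in NdpKO;Ptch+/- MBs were 4.51 and 4.5, and those of Nos3 and Cdh5 in Ptch+/- MBs 4.51 and 4.5, with Aplnr and Cdh5 just under it.

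**Figure D1:**
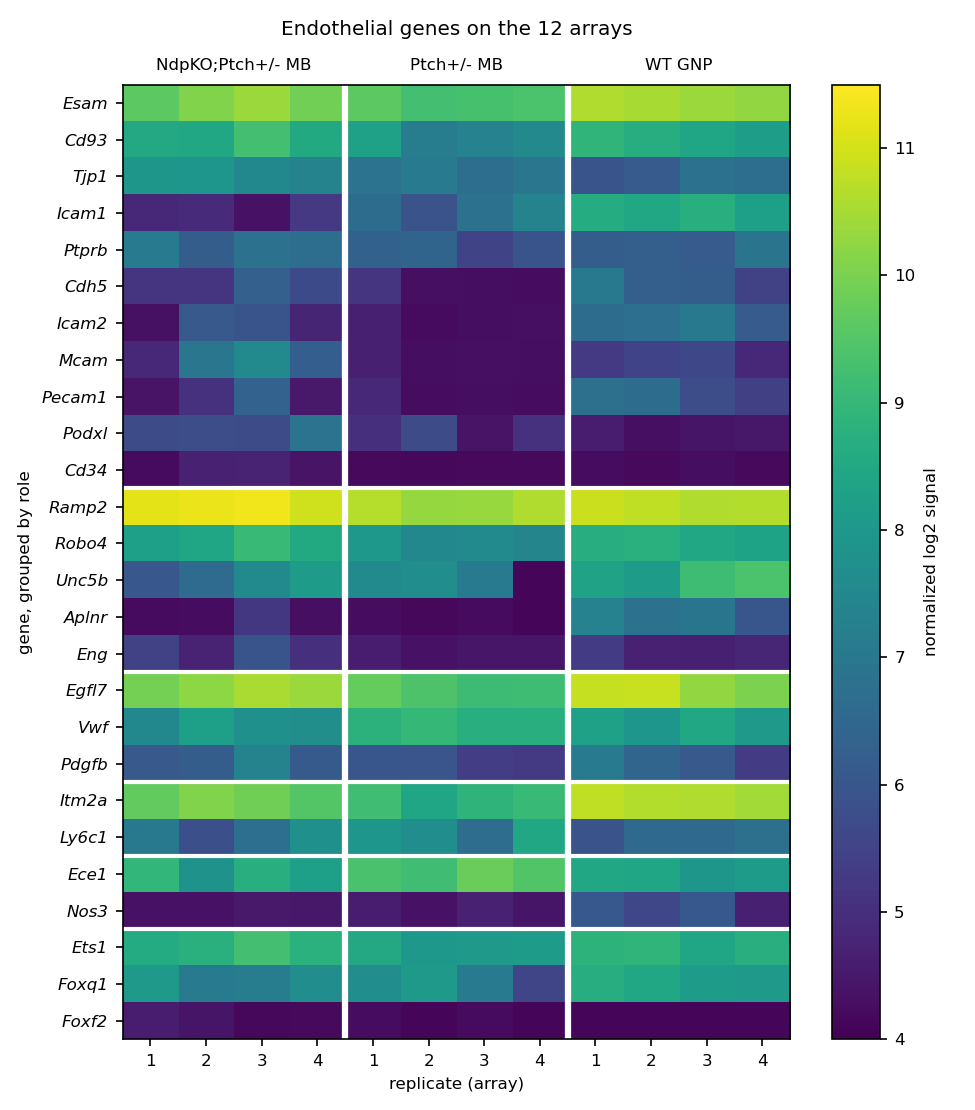
Normalized log2 signal (color scale) of the 26 endothelial genes that reached 4.5 on at least 1 array, in rows grouped by role, on the 12 arrays in columns by group and replicate. Signals run from the floor near 4.1 to 11.35 for Ramp2, and Pecam1, Cdh5, Icam2, Aplnr and Mcam are near the floor in most or all Ptch+/- MBs.

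The mean log2 signal over the 32 genes was 6.47 ± 0.18 in NdpKO;Ptch+/- MBs, against 6.11 ± 0.15 in Ptch+/- MBs and 6.71 ± 0.13 in GNPs (SD, n = 4 arrays each). By array it was 6.30, 6.39, 6.72 and 6.47 in NdpKO;Ptch+/- MBs, against 6.32, 6.12, 6.02 and 5.98 in Ptch+/- MBs, and 6.85, 6.74, 6.73 and 6.53 in GNPs. The tumor genotypes overlapped through Ptch+/- MB replicate 1, which lay above NdpKO;Ptch+/- MB replicate 1, and the GNPs overlapped only with NdpKO;Ptch+/- MB replicate 3. The differences of the group means were 0.36 for NdpKO;Ptch+/- MBs minus Ptch+/- MBs, -0.24 for NdpKO;Ptch+/- MBs minus GNPs and -0.60 for Ptch+/- MBs minus GNPs. These are descriptions, since genes of one array are not replicates.

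**Figure D2:**
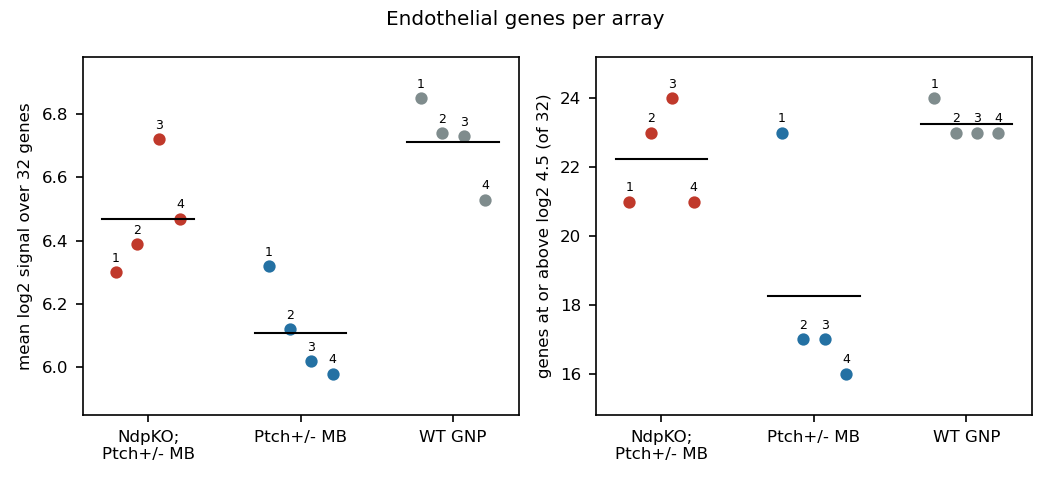
Mean normalized log2 signal over the 32 measured endothelial genes and number of these genes at 4.5 or above, for each of the 12 arrays by group. NdpKO;Ptch+/- MBs have 21 to 24 genes above the limit, Ptch+/- MBs 16 to 23 and GNPs 23 to 24, and Ptch+/- MB replicate 1 stands above the other 3 arrays of its group in both measures.

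Within a group many of the genes were highest or lowest on the same array. Of the 26 genes above background, 14 had their highest NdpKO;Ptch+/- MB value in replicate 3 and 14 their lowest in replicate 1. In Ptch+/- MBs, 16 were highest in replicate 1 and 11 lowest in replicate 2, and in GNPs 13 were highest in replicate 1 and 14 lowest in replicate 4. Such counts were not made for other genes, so they do not show a trait of endothelial genes. The median SD between arrays was 0.41, 0.27 and 0.33 in NdpKO;Ptch+/- MBs, Ptch+/- MBs and GNPs for the 24 members whose mean over the 12 arrays was 4.5 or more, against 0.23, 0.22 and 0.15 for the 8913 genes with such a mean. The endothelial genes therefore spread more between samples of one group, by their median, than genes of measurable signal in general.

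Between the tumor genotypes the log2 fold change was positive, that is higher in NdpKO;Ptch+/- MBs, for 21 of the 26 genes above background, with a median of 0.67. Cd34 and Foxf2 reached the limit in NdpKO;Ptch+/- MBs alone, so their sign came with this filter. Of the 24 members with a mean of 4.5 or more over the 12 arrays, 19 were positive, with a median of 0.7. Over the 8913 genes with such a mean, 53.2% were positive, with a median of 0.02. Counting genes at background too, 24 of the 32 members had a positive fold change beside 52.2% of all genes. Robo4, Ramp2 and Itm2a were higher and Vwf and Icam1 lower in NdpKO;Ptch+/- MBs at an adjusted p under 0.05 (limma, Benjamini-Hochberg over all 45281 probes), and 27 of the 32 genes did not pass. Among all 19057 genes 0.808% were called higher and 1.26% lower, which makes 2.07% against 5 of 32 here. Since endothelial genes are brighter than most, the closer background is the 8913 brighter genes, of which 1.6% were called higher, 2.59% lower and 4.2% in either direction, against 3, 2 and 5 of 24 such members. At an unadjusted p under 0.05 there were 19 of 32 genes, of either sign and with Prss23, which was at background on every array. The share of all genes at that p was not computed, here or for later counts of this kind, so these counts show no excess. The arrays of the genotypes did not overlap for 14 genes with higher and 3 with lower values in NdpKO;Ptch+/- MBs, compared with 4.68% and 4.72% of all genes. Prss23, at background on every array, is among the 14. Of the 24 brighter members 12 were higher and 3 lower in this way, against 7.54% and 7.54% of the brighter genes. Over all probes, 38.5% of 624 calls were higher in NdpKO;Ptch+/- MBs. Centring each array on the median of the probes that reached 4.5 on all 12 arrays made this 22.8% of 1606 calls. It left the same 5 endothelial genes called. The median log2 fold change over all probes was then -0.01 in place of 0. Centring shifts probes at the floor too, and 62.1% of probes were under 4.5 on all 12 arrays. How many of the added calls lie at the floor was not computed, so the changed share is no result about expressed genes.

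All 5 calls depend on how the spread is estimated. With the 8 tumors fitted alone, without the GNPs, no endothelial gene passed in either direction, with 17 at an unadjusted p under 0.05. Without NdpKO;Ptch+/- MB replicate 2 or without Ptch+/- MB replicate 3, 0 genes were called higher, with 17 and 18 of either sign at an unadjusted p under 0.05, and without NdpKO;Ptch+/- MB replicate 1 there were 5. Of 8 fits that left out 1 tumor array, the call held in 8 for Icam1, 6 for Ramp2, 4 for Vwf and 2 each for Robo4 and Itm2a. The sign of every one of the 5 genes held in all fits.

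**Figure D3:**
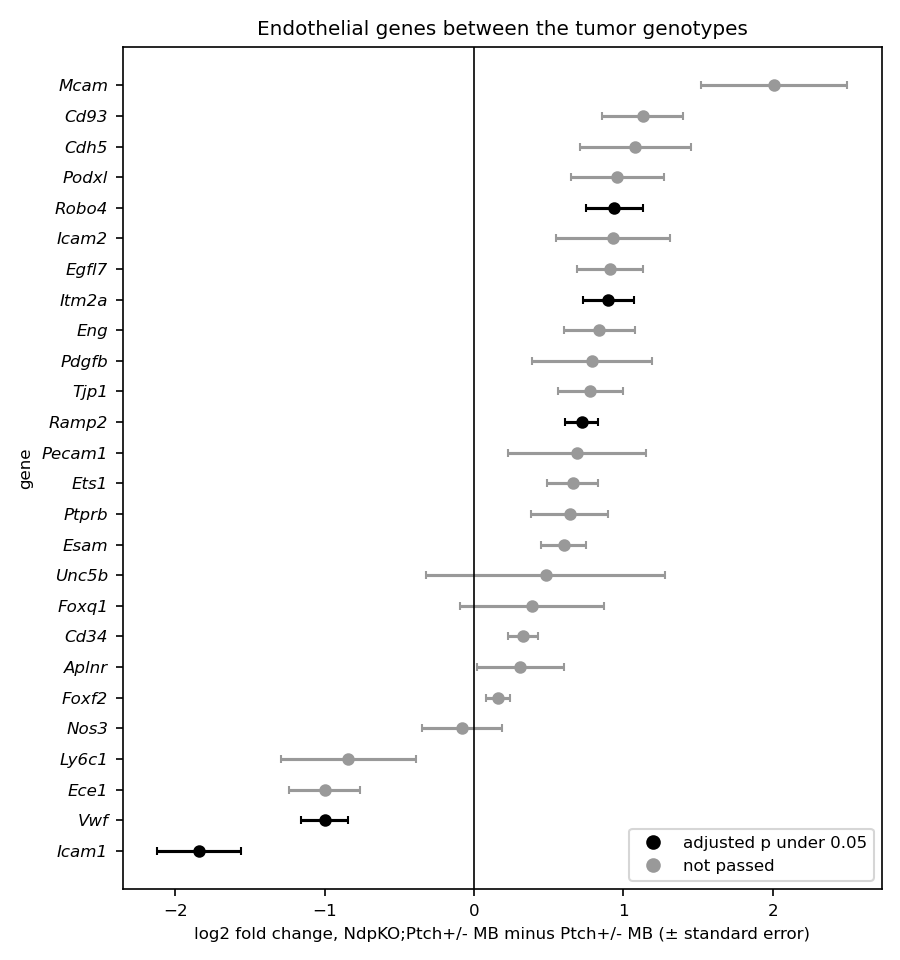
Fitted log2 fold change, NdpKO;Ptch+/- MB minus Ptch+/- MB, with its standard error, for the 26 endothelial genes above background, black where the adjusted p was under 0.05 and grey where it was not. Of the 26 genes 21 lie to the right of 0, with Mcam farthest at 2.01, and Icam1 lies farthest to the left at -1.84.

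Receptors and regulators of signaling gave 2 of the 3 genes called higher. Ramp2, the partner protein that turns the calcitonin-like receptor into the receptor of the vascular peptide adrenomedullin, was the brightest of the set. Its log2 signal was 11.20, 11.29, 11.35 and 10.95 in NdpKO;Ptch+/- MBs, 10.67, 10.31, 10.34 and 10.61 in Ptch+/- MBs and 10.89, 10.78, 10.60 and 10.63 in GNPs. All 4 NdpKO;Ptch+/- MBs lay above the other 8 arrays. Ramp2 rose by 0.72 ± 0.11 on the log2 scale against Ptch+/- MBs (SE, adjusted p = 0.0192), which is 1.64-fold, and by 0.47 against GNPs (adjusted p = 0.0245).

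Robo4, a guidance receptor of endothelial cells that stabilizes vessels, had log2 signals of 8.24, 8.44, 9.06 and 8.55 in NdpKO;Ptch+/- MBs, 8.0, 7.51, 7.59 and 7.42 in Ptch+/- MBs and 8.66, 8.75, 8.46 and 8.34 in GNPs. Every NdpKO;Ptch+/- MB lay above every Ptch+/- MB and in or near the range of the GNPs. The log2 fold change between the tumor genotypes was 0.94 ± 0.19 (SE, adjusted p = 0.0461), close to the threshold, and the call held in 2 of 8 fits that left out 1 tumor array. Robo4 fell by 0.92 in Ptch+/- MBs against GNPs (adjusted p = 0.00798), whereas the log2 fold change of NdpKO;Ptch+/- MBs against GNPs was 0.02 (adjusted p = 0.974).

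Eng (endoglin), a co-receptor of the TGF-beta family, had log2 signals of 5.46, 4.73, 5.95 and 5.05 in NdpKO;Ptch+/- MBs, against 4.56, 4.36, 4.46 and 4.45 in Ptch+/- MBs, where 3 of 4 arrays were at background, and 5.30, 4.68, 4.65 and 4.82 in GNPs. The tumor genotypes did not overlap, but the fitted change of 0.84 ± 0.24 did not pass (SE, adjusted p = 0.156). Unc5b, a netrin receptor of tip cells, averaged 7.10 ± 0.95 in NdpKO;Ptch+/- MBs, against 6.62 ± 1.68 in Ptch+/- MBs and 8.75 ± 0.61 in GNPs (SD, n = 4 each). It was at the floor in Ptch+/- MB replicate 4 alone (4.13), and without that array the log2 fold change between the tumors was -0.35 in place of 0.48.

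Aplnr, the apelin receptor of sprouting and venous endothelium, separated both tumor types from GNPs. Its signals were 4.23, 4.24, 5.22 and 4.31 in NdpKO;Ptch+/- MBs, 4.24, 4.15, 4.23 and 4.13 in Ptch+/- MBs and 7.32, 6.82, 6.91 and 6.02 in GNPs. Only NdpKO;Ptch+/- MB replicate 3 exceeded background among the 8 tumors. The gene was at least 4.81-fold lower in Ptch+/- MBs than in GNPs (adjusted p = 0.000272), a bound set against the limit of 4.5, and fell by 2.27 on the log2 scale in NdpKO;Ptch+/- MBs against GNPs (adjusted p = 0.000801, a fitted value because 3 of 4 arrays were at background).

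Itm2a encodes a membrane protein found in brain endothelium and lies on the X chromosome, as does Ndp. Its log2 signal was 9.69, 10.09, 9.87 and 9.50 in NdpKO;Ptch+/- MBs, 9.19, 8.42, 8.89 and 9.07 in Ptch+/- MBs and 10.77, 10.65, 10.62 and 10.46 in GNPs. The 3 groups did not overlap, with GNPs highest and Ptch+/- MBs lowest. The log2 fold change was 0.90 ± 0.17 between NdpKO;Ptch+/- MBs and Ptch+/- MBs (SE, adjusted p = 0.0422, a call that held in 2 of 8 fits without 1 tumor array), -0.84 between NdpKO;Ptch+/- MBs and GNPs (adjusted p = 0.0121) and -1.73 between Ptch+/- MBs and GNPs (adjusted p = 0.000142). Ly6c1, a GPI-anchored surface protein carried by brain endothelium and by monocytes, and whose probe was not checked against its close paralog Ly6c2, had 7.04, 5.84, 6.75 and 7.75 in NdpKO;Ptch+/- MBs, against 7.94, 7.68, 6.67 and 8.46 in Ptch+/- MBs and 5.93, 6.55, 6.56 and 6.76 in GNPs. The tumor genotypes overlapped widely and no comparison of Ly6c1 passed.

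**Figure D4:**
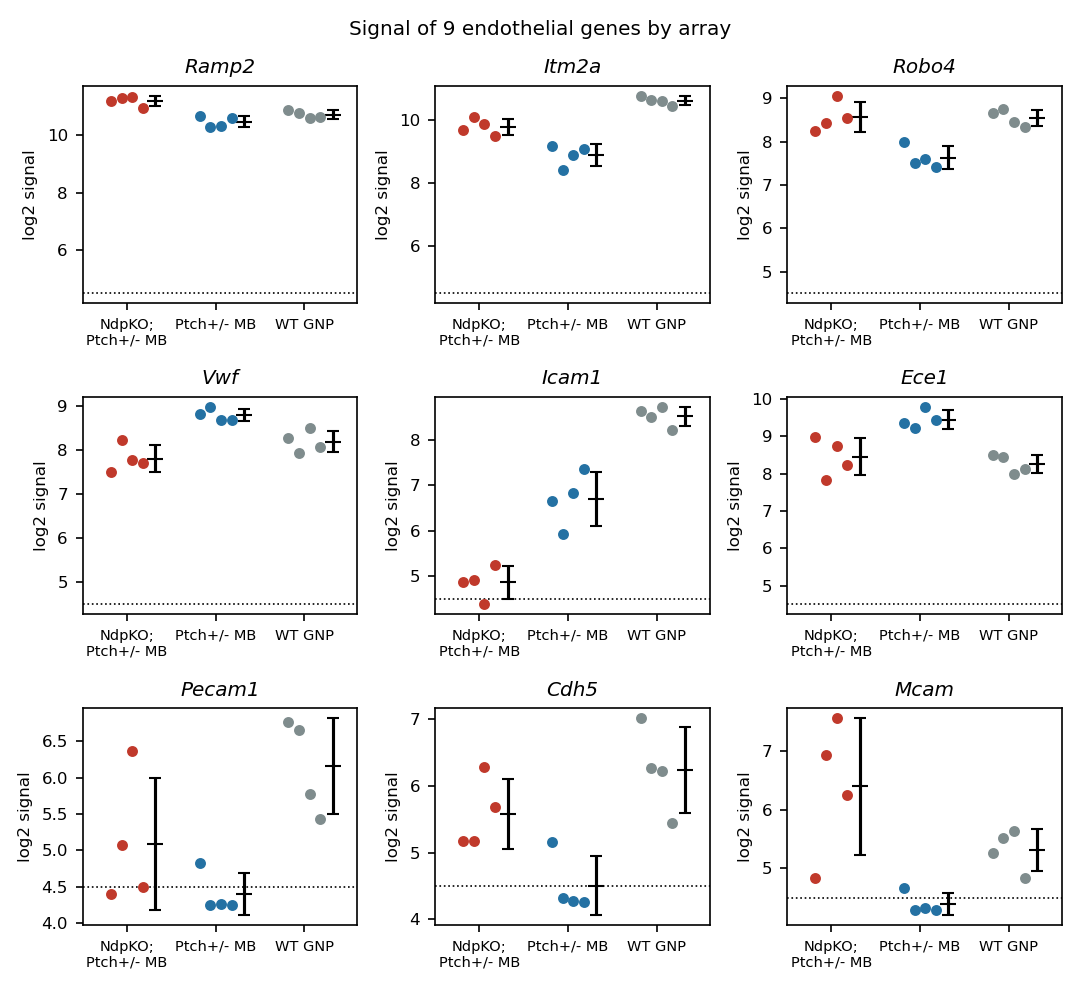
Normalized log2 signal of Ramp2, Itm2a, Robo4, Vwf, Icam1, Ece1, Pecam1, Cdh5 and Mcam on each array (points), with the mean and SD of the group (black, n = 4) and the background limit of 4.5 (dotted), on axes that do not start at 0 and differ between genes. Ramp2, Itm2a, Robo4, Cdh5 and Mcam are higher in all 4 NdpKO;Ptch+/- MBs than in any Ptch+/- MB, Vwf, Icam1 and Ece1 are lower, and Pecam1 overlaps.

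The promoters of 3 called genes with 1 annotated start each are shown to set genes that were higher (Robo4, Itm2a) beside one that was lower (Icam1) in NdpKO;Ptch+/- MBs. Each is the 250 bases before a RefSeq start in GRCm38.p6, 5′ to 3′ on the gene's strand, at chr9:37401722-37401971 (plus strand) for Robo4, chrX:107403361-107403610 (minus strand) for Itm2a and chr9:21015690-21015939 (plus strand) for Icam1. The Robo4 window ends within the span that RefSeq gives the gene. Capitals mark matches, on either strand, to AGGAAG, a core that ETS factors bind, and to CTTTGA, a core that the TCF/LEF factors of the beta-catenin pathway bind. Matches to one motif do not overlap matches to the other.
Robo4: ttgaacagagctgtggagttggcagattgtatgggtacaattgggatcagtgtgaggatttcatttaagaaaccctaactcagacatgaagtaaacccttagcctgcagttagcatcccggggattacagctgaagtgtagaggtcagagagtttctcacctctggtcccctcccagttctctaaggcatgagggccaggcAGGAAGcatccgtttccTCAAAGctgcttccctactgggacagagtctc
Itm2a: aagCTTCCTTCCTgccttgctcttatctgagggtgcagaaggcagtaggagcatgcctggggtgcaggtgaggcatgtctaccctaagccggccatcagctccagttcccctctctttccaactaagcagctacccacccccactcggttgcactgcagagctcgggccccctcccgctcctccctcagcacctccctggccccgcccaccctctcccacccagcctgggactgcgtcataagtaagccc
Icam1: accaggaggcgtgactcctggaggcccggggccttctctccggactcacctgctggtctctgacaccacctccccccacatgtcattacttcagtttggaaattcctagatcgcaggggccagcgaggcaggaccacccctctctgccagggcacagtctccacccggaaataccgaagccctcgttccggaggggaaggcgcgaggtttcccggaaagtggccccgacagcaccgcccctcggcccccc
Robo4 held AGGAAG at -49 to -44 from the start and CTTTGA on the other strand at -32 to -27. Itm2a held overlapping AGGAAG matches on the other strand at -247 to -242 and -243 to -238, and Icam1 held neither run of letters. Other sequences that these factors bind were not searched, so this does not show that the Icam1 window lacks such sites. Among 32536 windows of this length AGGAAG occurred in 29.6% and CTTTGA in 13.9%, and among 31 windows of the 17 endothelial genes matched in the promoter table in 10 and 3, which is near those shares. A match is a run of letters and not a site shown to be bound.

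Junction and adhesion genes, the largest role in the set, had a positive fold change in NdpKO;Ptch+/- MBs for 10 of the 11 above background, yet the only one called was Icam1, which was lower. Icam1, the adhesion molecule that captures leukocytes on activated endothelium and is also made by other cells, had log2 signals of 4.87, 4.92, 4.38 and 5.25 in NdpKO;Ptch+/- MBs, 6.66, 5.93, 6.84 and 7.36 in Ptch+/- MBs and 8.63, 8.51, 8.72 and 8.23 in GNPs. The 3 groups did not overlap, and the order ran opposite to most members between the tumors. The log2 fold change of Icam1 was -1.84 ± 0.28 in NdpKO;Ptch+/- MBs against Ptch+/- MBs (SE, adjusted p = 0.0168), -3.67 in NdpKO;Ptch+/- MBs against GNPs (adjusted p = 3.78e-05) and -1.83 in Ptch+/- MBs against GNPs (adjusted p = 0.00192). Both values for NdpKO;Ptch+/- MBs are fitted, since 1 of those 4 arrays was at background. It was the 1 gene of the 5 whose call held in all 8 fits that left out a tumor array.

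Pecam1 (CD31), the adhesion molecule used to stain vessels, had log2 signals of 4.40, 5.08, 6.37 and 4.5 in NdpKO;Ptch+/- MBs, 4.83, 4.25, 4.27 and 4.25 in Ptch+/- MBs and 6.77, 6.66, 5.77 and 5.43 in GNPs. Only 2 NdpKO;Ptch+/- MBs and 1 Ptch+/- MB exceeded background, and the tumor genotypes overlapped (adjusted p = 0.607). With most tumor arrays at background, this does not show that Pecam1 was unchanged. The paper reports higher Pecam1 in NdpKO;Ptch+/- MBs than in Ptch+/- MBs by qRT-PCR. Cdh5 (VE-cadherin), the cadherin of endothelial junctions, had 5.17, 5.17, 6.29 and 5.68 in NdpKO;Ptch+/- MBs, 5.16, 4.31, 4.27 and 4.25 in Ptch+/- MBs and 7.02, 6.27, 6.22 and 5.45 in GNPs. Its tumor genotypes were apart by 0.01 and the fitted change of 1.08 ± 0.37 did not pass (SE, adjusted p = 0.235). In Ptch+/- MBs both genes fell relative to GNPs, Pecam1 by 1.76 and Cdh5 by 1.74 on the log2 scale (adjusted p = 0.0263 and 0.0104, fitted values with 3 of 4 Ptch+/- MB arrays at background).

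Esam, an adhesion molecule of tight junctions, was far brighter, at 9.62, 10.08, 10.37 and 9.91 in NdpKO;Ptch+/- MBs, 9.61, 9.27, 9.33 and 9.38 in Ptch+/- MBs and 10.62, 10.52, 10.37 and 10.27 in GNPs. Its lowest NdpKO;Ptch+/- MB equalled the highest Ptch+/- MB to within 0.01. The change of 0.60 ± 0.15 between the tumors did not pass (SE, adjusted p = 0.108), while Esam fell by 1.04 in Ptch+/- MBs against GNPs (adjusted p = 0.00123). Icam2, the constitutive ICAM of endothelium, had 4.34, 6.09, 5.96 and 4.78 in NdpKO;Ptch+/- MBs, 4.65, 4.21, 4.28 and 4.32 in Ptch+/- MBs and 6.64, 6.74, 7.02 and 6.14 in GNPs. Icam2 overlapped between the tumors (adjusted p = 0.326) and fell against GNPs in NdpKO;Ptch+/- MBs by 1.34 (adjusted p = 0.0469) and in Ptch+/- MBs by 2.27 (adjusted p = 0.00282). Both are fitted values, with 1 of 4 NdpKO;Ptch+/- MB and 3 of 4 Ptch+/- MB arrays at background, and the call for NdpKO;Ptch+/- MBs held in 2 of 8 fits that left out 1 array.

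Mcam (CD146), an adhesion molecule shared by endothelium and mural cells, had the largest fitted rise that did not pass. Its signals were 4.84, 6.94, 7.56 and 6.25 in NdpKO;Ptch+/- MBs, 4.67, 4.29, 4.32 and 4.29 in Ptch+/- MBs and 5.27, 5.51, 5.63 and 4.83 in GNPs. In the plot by array, 3 NdpKO;Ptch+/- MBs were well above both other groups, but replicate 1 was within the range of GNPs. The log2 fold change between the tumors was 2.01 ± 0.49 (SE, adjusted p = 0.0959), a fitted value with 3 of 4 Ptch+/- MBs at background. The 2 other Mcam probes lay near the floor, with log2 fold changes of 0.18 and 0.19.

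Cd93, a surface lectin of endothelium and myeloid cells, had 8.52, 8.49, 9.25 and 8.56 in NdpKO;Ptch+/- MBs, 8.28, 7.15, 7.33 and 7.54 in Ptch+/- MBs and 8.91, 8.66, 8.45 and 8.20 in GNPs. The tumor genotypes did not overlap, with a change of 1.13 ± 0.27 that did not pass (SE, adjusted p = 0.0923), and its second probe gave 1.06 (adjusted p = 0.103). Against GNPs Cd93 fell by 0.98 in Ptch+/- MBs (adjusted p = 0.0346). Cd34, a sialomucin of endothelium and blood progenitors, exceeded background in 2 arrays only, both NdpKO;Ptch+/- MBs (4.68 and 4.74). Ptprb (VE-PTP), the phosphatase that restrains Tie2, averaged 6.70 ± 0.36 in NdpKO;Ptch+/- MBs, against 6.06 ± 0.41 in Ptch+/- MBs and 6.38 ± 0.35 in GNPs (SD, n = 4 each), and no comparison passed.

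Tjp1 (ZO-1), a scaffold of tight junctions that epithelia also use, and Podxl, a sialomucin of the vessel lumen, had their highest levels in NdpKO;Ptch+/- MBs and their lowest in GNPs. Tjp1 had 7.98, 7.95, 7.5 and 7.36 in NdpKO;Ptch+/- MBs, 6.85, 7.13, 6.72 and 6.95 in Ptch+/- MBs and 5.96, 6.16, 6.82 and 6.70 in GNPs. Podxl had 5.71, 5.78, 5.72 and 6.86 in NdpKO;Ptch+/- MBs, 5.01, 5.72, 4.41 and 5.08 in Ptch+/- MBs and 4.57, 4.32, 4.43 and 4.47 in GNPs. Both rose in NdpKO;Ptch+/- MBs relative to GNPs, Tjp1 by 1.29 (adjusted p = 0.00405) and Podxl by 1.57 (adjusted p = 0.00925, with 3 of 4 GNP arrays at background). Between the tumors the changes of 0.78 and 0.96 did not pass (adjusted p = 0.138 and 0.203).

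Of the secreted factors and ligands, Vwf, the glycoprotein stored by endothelium and platelets that tethers platelets, was the one called between the tumors. Its log2 signals were 7.5, 8.23, 7.77 and 7.72 in NdpKO;Ptch+/- MBs, 8.82, 8.99, 8.70 and 8.70 in Ptch+/- MBs and 8.29, 7.95, 8.50 and 8.07 in GNPs. Every NdpKO;Ptch+/- MB was below every Ptch+/- MB, and Ptch+/- MBs were above the GNPs. Vwf fell by 1.00 ± 0.16 on the log2 scale, or 2.00-fold, in NdpKO;Ptch+/- MBs against Ptch+/- MBs (SE, adjusted p = 0.0212), and rose by 0.60 in Ptch+/- MBs against GNPs (adjusted p = 0.0314). Of 6 platelet markers only Pf4 exceeded background on any array, and the mean level of the 6 was 4.17 to 4.46 in NdpKO;Ptch+/- MBs, 4.14 to 4.19 in Ptch+/- MBs and 4.26 to 4.59 in GNPs. The 5 other platelet markers were at background on every array.

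Egfl7, a matrix-bound factor secreted by endothelium, had 9.94, 10.23, 10.56 and 10.37 in NdpKO;Ptch+/- MBs, 9.74, 9.41, 9.14 and 9.18 in Ptch+/- MBs and 10.85, 10.86, 10.29 and 10.02 in GNPs. The tumors did not overlap, and the change of 0.91 ± 0.22 did not pass (SE, adjusted p = 0.0983), nor did the 1.53 of its dimmer second probe (adjusted p = 0.128). Against GNPs it fell by 1.14 in Ptch+/- MBs (adjusted p = 0.00667). Pdgfb, the ligand with which endothelium recruits pericytes, averaged 6.44 ± 0.61 in NdpKO;Ptch+/- MBs, against 5.65 ± 0.39 in Ptch+/- MBs and 6.23 ± 0.72 in GNPs (SD, n = 4 each), and no comparison passed.

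Of the enzymes above background, Ece1 was higher and Nos3 lower in Ptch+/- MBs than in GNPs. Ece1, which cleaves the precursor of the vasoconstrictor endothelin-1, had 8.97, 7.84, 8.74 and 8.24 in NdpKO;Ptch+/- MBs, 9.35, 9.21, 9.79 and 9.45 in Ptch+/- MBs and 8.49, 8.44, 7.98 and 8.12 in GNPs. It rose by 1.19 in Ptch+/- MBs against GNPs (adjusted p = 0.00813), and the change of -1.0 ± 0.24 between the tumors did not pass although they did not overlap (SE, adjusted p = 0.0944). Nos3, the endothelial nitric oxide synthase, lay near background in tumors, at 4.37, 4.36, 4.5 and 4.49 in NdpKO;Ptch+/- MBs and 4.56, 4.37, 4.70 and 4.42 in Ptch+/- MBs, against 6.06, 5.60, 6.07 and 4.67 in GNPs. It fell against GNPs by 1.17 in NdpKO;Ptch+/- MBs (adjusted p = 0.0188) and by 1.09 in Ptch+/- MBs (adjusted p = 0.0207), while GNP replicate 4 lay within the range of Ptch+/- MBs.

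Of the 5 transcription factors measured 0 passed in any comparison by limma, with 1, 1 and 2 at an unadjusted p under 0.05 in NdpKO;Ptch+/- MBs against Ptch+/- MBs, NdpKO;Ptch+/- MBs against GNPs and Ptch+/- MBs against GNPs. Ets1, the ETS factor of the set that was measurable, had 8.60, 8.75, 9.26 and 8.79 in NdpKO;Ptch+/- MBs, 8.52, 8.0, 8.07 and 8.16 in Ptch+/- MBs and 8.86, 8.90, 8.43 and 8.71 in GNPs. The tumors did not overlap, with a change of 0.66 ± 0.17 (SE, adjusted p = 0.109). Foxq1, a forkhead factor of brain endothelium in mice, averaged 7.49 ± 0.45 in NdpKO;Ptch+/- MBs, against 7.11 ± 1.08 in Ptch+/- MBs and 8.33 ± 0.31 in GNPs (SD, n = 4 each). Foxf2, a forkhead factor of brain pericytes and endothelium, exceeded the limit in NdpKO;Ptch+/- MB replicate 1 alone (4.60).

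The comparisons with WT GNPs ask how far each tumor type stood from the untransformed progenitor preparation. Both use the same 4 GNP arrays, and the 2 counts of calls were not tested against each other. In NdpKO;Ptch+/- MBs 3 of 32 genes were higher (Ramp2, Tjp1 and Podxl) and 5 lower (Icam2, Itm2a, Nos3, Aplnr and Icam1), and 24 did not pass. Leaving out 1 array of either group kept the call in 2 of 8 fits for Icam2, 3 for Ramp2 and 5 for Nos3, and in all 8 for the other 5 genes. Among all genes 7.69% were higher and 7.98% lower in that comparison, or 15.7% in either direction, and among the 8913 brighter genes 15.5% and 13.3%, or 28.8%, against 3, 5 and 8 of 24 members. Of all probes called, 46.7% were higher, and 21.1% after median centring, which shifts probes at the floor too. After this centring Esam joined the genes called lower. The median log2 fold change was 0.07 for the 26 genes above background and -0.11 for the 24 brighter members, beside 0.04 over the brighter genes. Of the 32 members 18 were positive beside 51.2% of all genes (12 of 24 beside 53.3% of the brighter ones).

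In Ptch+/- MBs 2 of 32 genes were higher than in GNPs (Vwf and Ece1) and 11 were lower (Pecam1, Cdh5, Esam, Egfl7, Robo4, Icam2, Itm2a, Cd93, Nos3, Aplnr and Icam1), and 19 did not pass. Leaving out 1 array of either group kept the call in 2 of 8 fits each for Vwf and Cd93, 3 for Pecam1 and 5 for Nos3, and in all 8 for the other 9 genes. Among all genes 10.3% were higher and 10.9% lower, or 21.2% in either direction. Among the 8913 brighter genes 19.7% and 18.5% were called, or 38.3%, against 2, 11 and 13 of 24 members. The median log2 fold change was -0.92 for the 26 genes above background and -0.95 for the 24 brighter members, beside -0.01 over the brighter genes. Of the 32 members 10 were positive beside 48.9% of all genes (5 of 24 beside 49.6% of the brighter ones). The groups did not overlap for 2 members with higher and 12 with lower values in Ptch+/- MBs, where 14.2% and 14.6% of all genes did not. These counts were the same among the 24 brighter members, where 23.8% and 23% of the brighter genes did not overlap.

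**Figure D5:**
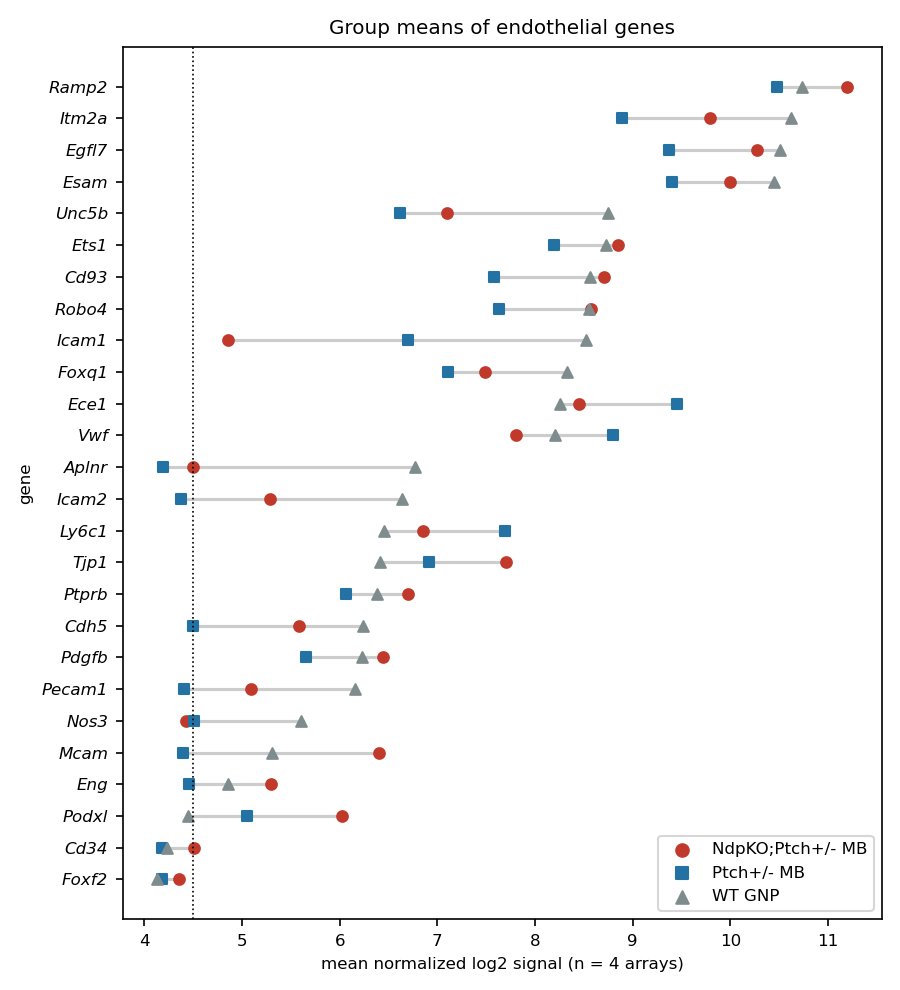
Mean normalized log2 signal of each of the 26 endothelial genes above background in NdpKO;Ptch+/- MBs, Ptch+/- MBs and GNPs (n = 4 arrays each), with genes ordered by their GNP level. Ptch+/- MBs have the lowest of the 3 means for 18 genes, and Vwf, Ece1 and Ly6c1 have their highest mean there.

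Ordering the 3 group means gave Ptch+/- MBs the lowest place for 18 of 26 genes. GNPs were highest and NdpKO;Ptch+/- MBs between for 9 of them: Pecam1, Cdh5, Esam, Egfl7, Icam2, Itm2a, Aplnr, Unc5b and Foxq1 (34.6%, against 24.6% of brighter genes with this order). NdpKO;Ptch+/- MBs were highest and GNPs between for another 9: Eng, Robo4, Ptprb, Ramp2, Cd34, Cd93, Ets1, Mcam and Pdgfb (34.6%, against 10.9%). The members here needed 4.5 on at least 1 array and the brighter genes a mean of 4.5, so these shares come from unlike filters. Cd34 and Foxf2 reached the limit in NdpKO;Ptch+/- MBs alone, so their highest mean there came with the filter. NdpKO;Ptch+/- MBs had the lowest mean for Nos3, Icam1 and Vwf only. Neighbours in these orders often overlapped: of the second set of 9, Ramp2 alone passed between NdpKO;Ptch+/- MBs and GNPs, and Robo4 and Cd93 alone between Ptch+/- MBs and GNPs.

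A further list of 36 genes of endothelial identity, none of them among the 33, had 33 measured and 17 above background on at least 1 array. This list too was chosen with earlier results of these data known, so its counts are a description and no independent evidence of a direction. Between the tumors 4 of the 33 were called higher in NdpKO;Ptch+/- MBs and 0 lower by limma, with 5 higher and 0 lower at an unadjusted p under 0.05, where 0.808% and 1.26% of all genes and 1.6% and 2.59% of the brighter genes were called. Palmd, which encodes palmdelphin, had 9.08, 9.84, 8.79 and 9.03 in NdpKO;Ptch+/- MBs, 6.98, 6.47, 6.63 and 6.57 in Ptch+/- MBs and 8.67, 8.74, 8.69 and 8.71 in GNPs. Its log2 fold change between the tumors was 2.52 (adjusted p = 0.000616). The others were Emcn, a sialomucin of capillary and venous endothelium, at 1.95 (adjusted p = 0.0321), Adgrl4, an adhesion receptor of endothelium, at 1.22 (adjusted p = 0.0214), and Mmrn2, a matrix protein of endothelium, at 2.47 (adjusted p = 0.00941, fitted with 2 of 4 Ptch+/- MBs at background).

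Against GNPs, 4 of the 33 were called higher and 7 lower in NdpKO;Ptch+/- MBs, where 7.69% and 7.98% of all genes and 15.5% and 13.3% of the brighter genes were. In Ptch+/- MBs 2 were called higher and 11 lower, where 10.3% and 10.9% of all genes and 19.7% and 18.5% of the brighter genes were. Of the genes called lower, 5 of 7 and 8 of 11 were above background in either group. Klf2, a flow-responsive transcription factor that other cells also express, averaged 4.52 in NdpKO;Ptch+/- MBs and 4.55 in Ptch+/- MBs, against 8.78 in GNPs, and Sox18, a transcription factor of endothelium, 11.47 and 11.86, against 8.03 in GNPs. Cldn5, the claudin of the blood-brain barrier, averaged 9.90 in NdpKO;Ptch+/- MBs, against 9.91 in Ptch+/- MBs and 11.18 in GNPs. Cldn5 fell in both tumor types against GNPs (adjusted p = 0.00118 and 0.000925).

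Between the tumors, the mean levels of markers of other cells did not all run in the direction of the endothelial level. For mural cells, whose markers exceeded background for 8 of 13 genes (Pdgfrb, Anpep, Tagln, Myh11 and Des did not), the mean level was 5.49 to 5.80 in NdpKO;Ptch+/- MBs, 5.05 to 5.35 in Ptch+/- MBs and 5.18 to 5.40 in GNPs, and Vtn alone passed between the tumors, at 0.90 (adjusted p = 0.0427). Markers of microglia and leukocytes, 9 of 11 above background with Ptprc and Itgam not, were at 7.99 to 8.59 in NdpKO;Ptch+/- MBs, 8.10 to 9.04 in Ptch+/- MBs and 5.96 to 6.44 in GNPs. Markers of fibroblasts and meninges, all 8 above background, were at 5.66 to 6.31, 6.19 to 6.98 and 7.11 to 7.33 in these groups.

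The mean level of red cell genes (3 globin genes above background, Alas2 and Slc4a1 not) was 7.78 to 9.38 in NdpKO;Ptch+/- MBs, 5.32 to 8.06 in Ptch+/- MBs and 8.42 to 9.60 in GNPs. The globin genes were higher in NdpKO;Ptch+/- MBs than in Ptch+/- MBs by 2.78 to 3.02 on the log2 scale without passing (adjusted p = 0.26 to 0.27), and fell in Ptch+/- MBs against GNPs, with log2 fold changes of -3.91 to -3.63 (adjusted p = 0.0337 to 0.0385). The group means of the red cell level, 8.52 in NdpKO;Ptch+/- MBs and 6.79 in Ptch+/- MBs, against 9.05 in GNPs, had the same order as those of the endothelial level. By array the red cell level was 7.78, 8.36, 9.38 and 8.55 in NdpKO;Ptch+/- MBs, 5.95, 7.81, 8.06 and 5.32 in Ptch+/- MBs and 8.92, 8.42, 9.60 and 9.25 in GNPs. The 4 NdpKO;Ptch+/- MBs had the same order in the red cell and the endothelial level, and the arrays of Ptch+/- MBs and of GNPs did not. The part of blood in these differences was not tested. Choroid plexus markers, 5 of 6 above background with Folr1 not, were at 5.98 to 7.55 in NdpKO;Ptch+/- MBs, 5.66 to 8.82 in Ptch+/- MBs and 6.47 to 7.02 in GNPs. Astrocyte markers, all 6 above background, were at 9.97 to 10.52, 9.69 to 11.23 and 9.73 to 9.97 in these groups, and GNP markers, 6 of 7 with Atoh1 not, at 9.32 to 9.43, 9.20 to 9.59 and 9.56 to 9.75. No marker of these 3 lists, of red cells, of leukocytes or of fibroblasts passed between the tumors by limma, with 10 at an unadjusted p under 0.05, and the part of these cells was not tested further.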

How the data were processed

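The 12 samples were profiled with the MouseWG-6 v2.0 platform of Illumina. Values were deposited as log2 signal: the authors had run neqc of limma on BeadStudio output, which corrects background by control probes, adds an offset and makes the quantiles of all arrays equal. The version used is not given in the sources used here. The offset makes fold changes of dim genes too small, and quantile normalization hides differences in general level.

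Here, groups were compared in R 4.3.3 with limma 3.58.1 (lmFit and eBayes, 1 group-means model over all 12 arrays, no covariates), with Benjamini-Hochberg adjustment over 45281 probes and a threshold of 0.05. The annotation gave 1 symbol to 34885 probes, several to 18 and none to 10378, and 19057 genes were represented by their brightest probe. For Robo4, Itm2a, Vwf, Pecam1, Cdh5 and Ece1 every other probe lay under 4.5 on all 12 arrays. The 33 genes, the lists, the limit of 4.5 and the tests were chosen with earlier results of these data known. All 33 genes are named. Where all arrays of the dimmer group were under 4.5, a bound replaces the fold. With 4 against 4 arrays the smallest 2-sided p of an exact permutation test is 0.0286. The number of arrays limits the precision. On simulated data for NdpKO;Ptch+/- MB against Ptch+/- MB (45281 probes), 61 of 100 log2 changes of 1 and 89 of 100 of 2 were recovered. There were 8 false calls of 158. The changes were placed only on probes with a mean well above 4.5, and the simulated noise was normal and had no floor. Recovery was not computed for the endothelial genes alone, several of which lie near background. Their median SD was 0.41 in NdpKO;Ptch+/- MBs and 0.27 in Ptch+/- MBs, against 0.23 and 0.22 for the 8913 brighter genes. These shares therefore do not give the power for the endothelial set, where it may be lower. Promoters are from RefSeq (GRCm38.p6). Alternatives were median centring (on the probes that reached 4.5 on all 12 arrays), dim probes left out, array weights, an intensity trend with robust prior, a replicate block, the tumors alone, the mean of a gene's probes, a threshold of 0.01 and leaving out each array.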

Additional observations from a re-analysis of the deposited data

Results flagged for a closer look

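Sets of 4 arrays (1 gene in 1 group) were examined where at least 1 array reached the background limit. In 9 of 73 such sets, the highest or lowest array lay apart from the other 3 by Dixon's criterion. The chance rate of about 1 in 20 holds for independent, normal values that were not selected, so it does not apply here. Pecam1, Cdh5 and Mcam in Ptch+/- MBs and Aplnr in NdpKO;Ptch+/- MBs entered only through the flagged array. Their other 3 arrays were at background, and genes share arrays. The count is therefore a description and shows no excess over chance. In Ptch+/- MB replicate 1, Pecam1 was 4.83, Cdh5 5.16 and Mcam 4.67, against 4.25 to 4.27, 4.25 to 4.31 and 4.29 to 4.32 in the other Ptch+/- MBs. In Ptch+/- MB replicate 4, Unc5b was 4.13, against 7.08 to 7.69 in the others. In NdpKO;Ptch+/- MB replicate 3, Cd93 was 9.25, Aplnr 5.22 and Pdgfb 7.35, against 8.49 to 8.56, 4.23 to 4.31 and 6.09 to 6.20 in the other NdpKO;Ptch+/- MBs. Podxl was 6.86 in NdpKO;Ptch+/- MB replicate 4, against 5.71 to 5.78 in the others, and Ptprb was 6.90 in GNP replicate 4, against 6.15 to 6.27. Ptch+/- MB replicate 1 and NdpKO;Ptch+/- MB replicate 3 are the arrays with the highest mean endothelial level of their groups. That mean includes the flagged genes, so it is not a separate observation. The cause of these values was not tested.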

How the results depend on the processing

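The positive median fold change of the endothelial genes between the tumors kept its sign under all alternatives run but was 0.42, and not 0.67, when the probes of a gene were averaged, while the calls between the tumors did not hold under all. For NdpKO;Ptch+/- MB against Ptch+/- MB, 6 genes were called higher without dim probes, 7 under an intensity trend and robust prior, 0 with the replicate block, 0 with the tumors alone and 0 at an adjusted p under 0.01. In the last 3 settings 0 were also called lower, with 18, 17 and 19 of 32 at an unadjusted p under 0.05. At 0.01, 2 genes were higher and 2 lower in NdpKO;Ptch+/- MB against GNPs, and 1 higher and 7 lower in Ptch+/- MB against GNPs. The mean of a gene's probes gave a median of -0.38 for Ptch+/- MB against GNPs, and not -0.92.

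Leaving out 1 array at a time gave 0 to 5 higher and 1 to 2 lower between the tumors, 2 to 4 and 3 to 7 in NdpKO;Ptch+/- MB against GNPs, and 1 to 3 and 8 to 12 in Ptch+/- MB against GNPs. The medians of the 3 comparisons then ran from 0.51 to 0.77, -0.12 to 0.13 and -1.04 to -0.78, the differences in mean level from 0.28 to 0.43, -0.33 to -0.19 and -0.67 to -0.56, and the shares above background from 68.8% to 75% in NdpKO;Ptch+/- MBs and 53.1% to 59.4% in Ptch+/- MBs, with 71.9% throughout in GNPs.

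The sign turned for some genes that were called under neither setting. Between the tumors these were Nos3 with the mean of its probes (0.01), and Unc5b and Foxq1, which ran from -0.35 to 0.84 and from -0.12 to 0.70 when 1 array was left out and were negative without Ptch+/- MB replicate 4. For NdpKO;Ptch+/- MB against GNPs, leaving out 1 array gave -0.15 to 0.13 for Robo4, -0.03 to 0.27 for Cd93, -0.01 to 0.20 for Ets1 and -0.10 to 0.48 for Pdgfb. The lowest of each came without NdpKO;Ptch+/- MB replicate 3. Robo4 was also negative without GNP replicate 3 (-0.01) or replicate 4 (-0.05), as was Pdgfb without GNP replicate 4 (-0.09). The cause was not tested.

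The replicate numbers do not pair the samples: correlations of same-numbered deviations over 8913 genes ran from -0.19 to 0.13. With the replicate number as a block, 0 endothelial genes were called between the tumors, 2 higher and 4 lower in NdpKO;Ptch+/- MB against GNPs, and 1 higher and 9 lower in Ptch+/- MB against GNPs.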
